A study of Homo sapiens with 8 samples.

Results

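PROM1 and TAPT1 are neighbouring genes on chromosome 4, band p15, and both are known as loci bound directly by the leukaemia fusion protein MLL/AF4. They were chosen by name: all probes annotated to either gene were taken from the value tables of both array versions. This gave 1 probe for PROM1 (ILMN_1786720) and 1 for TAPT1 (ILMN_1693882), 2 of 18205 named genes and 2 of the 39421 probes in each table, and both had a value on all 8 arrays. Both passed the filter on low values. No protein-coding gene lies between them in the RefSeq gene order. The position of each probe within its transcript was not analysed here.

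The arrays measured total RNA of SEM, an established B-cell precursor acute lymphoblastic leukaemia line that carries MLL/AF4, so every group below, controls included, comes from fusion-positive cells. Cells were electroporated up to 3 times at intervals of 2 days. The siMLL/AF4 group received siRNA against the fusion transcript and the siCtrl group received control siRNA, with 1 array for each of day 2, day 4 and day 6. The MOCK group is called a pulse control in the labels, with 1 array for each of day 2 and day 4. Nothing in the labels says that the days are separate cultures, so the p-values reflect how far days and arrays of 1 line differ, and the number of arrays limits every value. In such bulk samples, fewer cells of a kind and less RNA per cell cannot be told apart.

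PROM1 encodes prominin-1 (CD133), a pentaspan glycoprotein of membrane protrusions that binds cholesterol and is widely used as a surface marker of haematopoietic stem and progenitor cells. TAPT1 encodes a multi-pass membrane protein named for its role in axial skeletal patterning in the mouse. In MLL/AF4 leukaemia the fusion joins the chromatin-binding start of KMT2A (MLL), which holds a CXXC domain that recognises unmethylated CpG dinucleotides, to the end of AFF1 (AF4), a scaffold of transcription elongation factors. PROM1 is highly expressed in this leukaemia and the fusion occupies both genes.

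Because the CXXC domain reads CpG, the RefSeq start regions of PROM1 are shown here with each CG in capitals. RefSeq sequences matched 1 of the 2 genes, with 4 annotated starts of PROM1, all on the minus strand of GRCh38.p14. Each window of 300 bases runs from 250 before to 50 after the start. The motif CG reads the same on both strands. It occurred 18, 32, 24 and 6 times in the 4 windows, against a median of 14 over 35116 RefSeq windows of the same length, of which 96.0% hold at least 1 CG. The windows richest and poorest in CG are printed, the first at chr4:16083680-16083979 and the second, downstream of the other starts, at chr4:16076069-16076368. 81.1% of all windows had fewer CG than the first and 33.7% fewer than the second. The array does not tell which start was used, and a count of CG is a description of these letters only.
PROM1, CpG-rich start: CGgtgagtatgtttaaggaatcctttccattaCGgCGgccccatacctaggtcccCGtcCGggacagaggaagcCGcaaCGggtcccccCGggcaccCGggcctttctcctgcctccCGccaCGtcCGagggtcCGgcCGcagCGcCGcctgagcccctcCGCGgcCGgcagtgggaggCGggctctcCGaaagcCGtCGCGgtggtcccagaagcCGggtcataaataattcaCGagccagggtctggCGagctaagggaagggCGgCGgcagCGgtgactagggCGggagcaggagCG
PROM1, CpG-poor start: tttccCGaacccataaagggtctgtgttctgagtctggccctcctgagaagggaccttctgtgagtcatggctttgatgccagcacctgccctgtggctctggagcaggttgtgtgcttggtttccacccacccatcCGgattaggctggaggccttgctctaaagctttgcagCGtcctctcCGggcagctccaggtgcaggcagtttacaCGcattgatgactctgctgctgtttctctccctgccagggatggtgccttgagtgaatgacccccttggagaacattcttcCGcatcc

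Levels are given as log2 of the normalized intensity. The deposited numbers were read as natural logs, which was inferred from their size. Should they be base 2 logs, each level and difference without an offset would be 0.693 times as large and its p-value the same. The 2 arrays of day 6 are of a newer version, so day 6 and array version cannot be told apart, and differences were taken within a day. The siMLL/AF4 array of day 6 stood furthest from the older arrays. Its median rank correlation with them (Spearman), taken over probes, was 0.831, that of siCtrl on day 6 was 0.873, and the older arrays had 0.911 to 0.921 among themselves. The 3 probes of KMT2A and AFF1 that were tested had siMLL/AF4 below siCtrl on each of the 3 days, by averages between -1.25 and -0.52, and 0 of them passed the test (limma, adjusted p = 0.461 to 0.672). Against MOCK on day 2 and day 4 they did not share a direction: siMLL/AF4 differed by 0.057 and 0.039 at the KMT2A probe, by -0.60 and 0.13 at the brighter AFF1 probe and by 1.14 and -0.053 at the dimmer one. Of 12 B-cell precursor markers, 6 were tested, and the brightest probe of each lay above the array median everywhere, among them CD79A and EBF1. Among markers of other blood cells, CSF1R, LYZ and CEBPA of 8 myeloid genes and NKG7 of 8 T and NK cell genes lay above the median on all arrays. MPO and CD3E had values on 3 arrays each and ELANE on 2, and 0 of the 4 erythroid genes with a probe had a value on all arrays. The summed level of the myeloid markers ranged from 12.36 to 12.70 in MOCK, from 11.77 to 12.72 in siCtrl and from 11.17 to 12.74 in siMLL/AF4. That of the T and NK cell markers ranged from 9.96 to 10.06, from 9.26 to 10.58 and from 9.03 to 10.41. In both lists the siRNA ranges include day 6 on the newer version and the MOCK ranges do not. The widths of the ranges therefore cannot be compared between MOCK and the siRNA groups. With siMLL/AF4, 2 of the 3 tested myeloid markers averaged lower than with siCtrl (CSF1R -0.75, CEBPA -0.47) and LYZ averaged 1.07 higher, with a list median of -0.47. The tested T and NK cell markers averaged -0.024 for NKG7 and -1.50 for GZMA. 0 of these markers passed (limma, adjusted p from 0.337 for GZMA to 0.994 for NKG7), and LYZ and GZMA had an unadjusted p under 0.05. All arrays are of the SEM line, so these values are not read as a share of other blood cells. Their relation to the results below was not tested.

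PROM1 was among the brightest probes of these cells. Its level with siCtrl was 14.54 on day 2, 14.39 on day 4 and 13.12 on day 6. With siMLL/AF4 it was 14.05, 12.61 and 11.65 on the same days, and in MOCK it was 13.93 on day 2 and 13.91 on day 4. The siMLL/AF4 array was thus the lower of the siRNA pair on every day, but the groups overlap across days, since siMLL/AF4 on day 2 lay above siCtrl on day 6. On day 2 of siCtrl the probe ranked 83 of 28119 probes with a value. On day 6 of siMLL/AF4, where it was lowest, it ranked 1076 of 28079 and still lay at the 96.2nd percentile of the array.

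TAPT1 was measured at 10.19, 10.00 and 11.02 with siCtrl on day 2, 4 and 6. With siMLL/AF4 it was at 9.28, 9.51 and 10.39, and in MOCK at 9.14 and 9.17 on day 2 and 4. On day 2 and day 4 the order of treatments was the same, with siCtrl highest, siMLL/AF4 next and MOCK lowest. Across days the siRNA groups overlap, since siMLL/AF4 on day 6 lay above siCtrl on day 2 and day 4. The TAPT1 probe lay between the 82.6th percentile, in MOCK on day 2, and the 94.0th, in siCtrl on day 6. Between day 4 and day 6, where the array version changed, TAPT1 was higher by 1.02 in siCtrl and 0.88 in siMLL/AF4, while PROM1 was lower, with changes of -1.27 and -0.96.

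**Figure D1:**
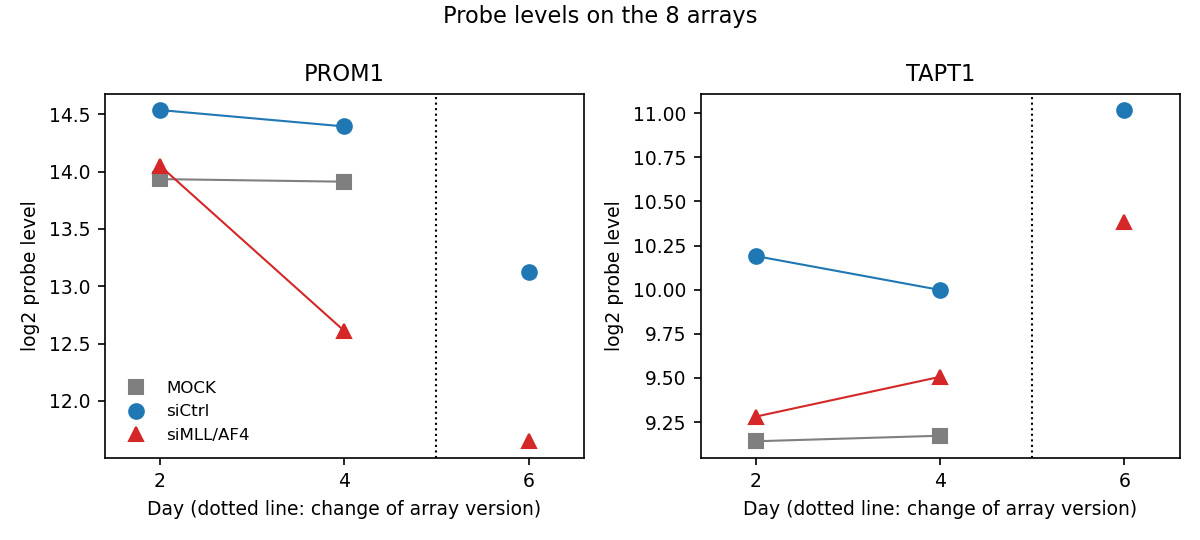
Levels of the PROM1 probe (left) and the TAPT1 probe (right) as log2 normalized intensity on each of the 8 arrays, against day, with squares for MOCK, circles for siCtrl and triangles for siMLL/AF4; 1 array per point, so there are no error bars. The siCtrl point is the highest on each day in both panels, and the PROM1 level with siMLL/AF4 was 14.05 on day 2 and 12.61 on day 4.

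siMLL/AF4 was set against siCtrl within each day, to see how the 2 genes depended on the fusion transcript. PROM1 was lower by a mean of -1.25 ± 0.68 (SD, n = 3 days), a 2.38-fold difference. Day 2 gave a difference of -0.49, day 4 one of -1.78 and day 6 one of -1.47, so that 71.4%, 29.0% and 36.0% of the siCtrl intensity was measured. TAPT1 was lower by a mean of -0.68 ± 0.21 (SD, n = 3 days), a 1.60-fold difference. Its differences were -0.91, -0.49 and -0.63, which left 53.2%, 71.1% and 64.5% of the siCtrl intensity on day 2, 4 and 6.

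Neither gene passed the test over all probes. With limma and the day as a block, PROM1 had a difference of -1.25 ± 0.32 (SE) and an adjusted p of 0.453, lower on 3 of 3 days. TAPT1 had a difference of -0.68 ± 0.24 (SE) and an adjusted p of 0.553 (limma), also lower on 3 of 3 days. Of the 10765 probes tested with limma, 0% passed at an adjusted p under 0.05. At an unadjusted p under 0.05 there were 7.91% of them, PROM1 and TAPT1 included. Being lower on all 3 days was common, at 15% of the probes tested. The exact sign-flip test over the 3 days gave p = 0.25 for each gene (two-sided), the smallest value that 3 days allow.

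Set against all probes tested, PROM1 lay at the lower edge. Its averaged difference was matched or passed by 1.19% of the probes, 128 in number, and that of TAPT1 by 6.57%. By day, 21.1%, 0.576% and 5.47% of probes were at or below PROM1 on day 2, 4 and 6, and 8.42%, 13.8% and 17.9% at or below TAPT1. Neither gene was among the 6.77% of probes at least 2-fold lower on day 2. At least 2-fold lower on day 4 were 3.32% of probes, PROM1 among them, and at least 2-fold lower on day 6 were 9.9%, again with PROM1. Averaged over the days, PROM1 was among the 2.54% of probes at least 2-fold lower. TAPT1 was less than 2-fold lower on each day. With a trended robust variance PROM1 passed (limma, adjusted p = 0.0443), together with 0.539% of the probes, whereas over all alternatives its adjusted p (limma) ranged from 0.0443 to 1.00.

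With 1 array per treatment and day, the largest difference from siCtrl fell on day 4 for PROM1 and on day 2 for TAPT1. The PROM1 difference minus the TAPT1 difference was 0.42 on day 2, -1.29 on day 4 and -0.84 on day 6, with a mean of -0.57 ± 0.89 (SD, n = 3 days; exact sign-flip test, p = 0.5, two-sided). The spread between days was therefore larger than the mean difference between the genes. A trend of the effect over the days was not called for either gene, at -0.25 ± 0.17 (SE) per day for PROM1 (limma, adjusted p = 0.578) and 0.070 ± 0.14 (SE) per day for TAPT1 (limma, adjusted p = 0.867). That model passed 0% of probes and left 1 residual degree of freedom. Without day 6 the slopes were -0.65 per day for PROM1 and 0.21 for TAPT1, with no test. Within siMLL/AF4 on the older arrays PROM1 was lower on day 4 than on day 2, with a change of -1.44, which 5.95% of probes shared as a change of at least 2-fold downward. The change over the same days was -0.14 in siCtrl and -0.023 in MOCK.

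The MOCK arrays gave a second control on day 2 and day 4. PROM1 with siMLL/AF4 stood 0.12 above MOCK on day 2, at or below which lay 51.7% of probes. On day 4 the difference was -1.30, at or below which lay 3.08% of probes. TAPT1 with siMLL/AF4 lay above MOCK on both days, by 0.14 and 0.33, as did 35.3% of the probes, while 31.2% lay below it on both. The siCtrl arrays also lay above MOCK, by 0.60 and 0.48 for PROM1 and by 1.05 and 0.83 for TAPT1, which on day 2 was among the 12.3% of probes at least 2-fold higher. For TAPT1 the distance from siMLL/AF4 to MOCK was thus shorter than that to siCtrl on both days.

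In the fit of all 8 arrays, siCtrl minus MOCK was 0.60 ± 0.37 (SE) for PROM1 (limma, adjusted p = 0.390) and 0.93 ± 0.23 (SE) for TAPT1 (limma, adjusted p = 0.167). siMLL/AF4 minus MOCK was -0.65 ± 0.37 (SE) for PROM1 (limma, adjusted p = 0.338) and 0.25 ± 0.23 (SE) for TAPT1 (limma, adjusted p = 0.553). In each contrast 0% of 10730 probes passed, and 21.6% and 22.8% had an unadjusted p under 0.05. Higher in siCtrl than in MOCK on both days were 34.3% of the probes. These contrasts share arrays with each other and with the knock-down. When MOCK replaced siCtrl as the control for those days, the averaged knock-down difference was -0.89 for PROM1 and -0.053 for TAPT1, and with the mean of both controls it was -1.07 and -0.37. Without day 4 the fitted PROM1 difference against MOCK was -0.13. That fit draws on the siRNA arrays of day 6, which has no MOCK array, and on day 2, the only remaining day with MOCK, the measured difference was 0.12.

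**Figure D2:**
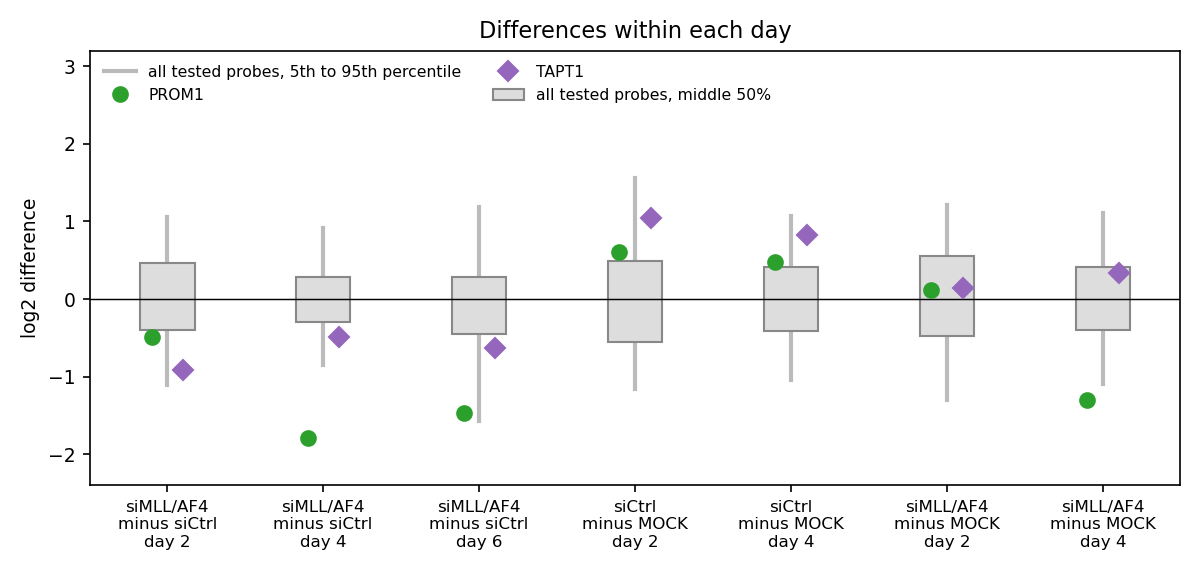
Log2 differences of PROM1 (circles) and TAPT1 (diamonds) within each day for siMLL/AF4 minus siCtrl, siCtrl minus MOCK and siMLL/AF4 minus MOCK, beside all tested probes (grey lines, 5th to 95th percentile; boxes, middle 50%). PROM1 lies below the 5th percentile on day 4 against either control, at -1.78 and -1.30, and TAPT1 lies within the 5th to 95th percentiles in each column.

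The genes around the pair were then read in chromosome order, from RAB28 to LCORL, 23 protein-coding genes with PROM1 and TAPT1. All 23 had a probe and 13 were tested. Besides the pair, 11 neighbours were tested, of which 5 were lower and 6 higher with siMLL/AF4, with a median difference of 0.067 against -0.019 for all probes. 0 of the 11 passed at an adjusted p under 0.05 (limma), 1 had an unadjusted p under 0.05, where 7.91% of all probes had, and 2 of them were lower on all 3 days, against 15% of all probes.

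One of these was CPEB2, an RNA-binding regulator of translation that is also known as a target of the fusion and lies 9 genes from PROM1. It differed by -1.35, -2.01 and -0.48 on day 2, 4 and 6 (mean -1.28 ± 0.34 SE; limma, adjusted p = 0.459). Against MOCK it differed by 0.069 and -0.58 with siMLL/AF4 and by 1.42 and 1.42 with siCtrl. The other was NCAPG, a condensin subunit, at -0.37, -0.14 and -0.029.

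The remaining neighbours had averaged differences within 0.5 of zero. RAB28, a small GTPase, had -0.30, QDPR, which recycles tetrahydrobiopterin, -0.20 and DCAF16, a substrate receptor of a ubiquitin ligase, -0.22. FAM200B had 0.072, MED28, a Mediator subunit, 0.067, and LAP3, a leucine aminopeptidase, 0.22. The homeobox gene NKX3-2 had 0.23 with days from -1.38 to 1.38, and LCORL had 0.45. FBXL5, an iron-sensing F-box protein, had 0.34 at its brighter probe and -0.43 at a dimmer one, so its probes disagree in sign. The second RAB28 probe had -0.066.

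The genes next to the pair on either side lacked values on some arrays. FGFBP2, beside PROM1, had values on 7 arrays, from a level of 2.59 to 9.11, and was higher with siMLL/AF4 by 1.21 on day 2 and 2.66 on day 4. FGFBP1 had none on any array, and CD38, an NAD-consuming surface enzyme, had 3, with a difference of 0.70 on day 6. Its relative BST1 had values on 4 arrays and a difference of 1.53 on day 4. LDB2, on the far side of TAPT1, had values on 5 arrays and a difference of 1.18 on day 6. CLRN2 had values on 3 and 5 arrays at its probes, BOD1L1 on 5, CC2D2A on 3, and C1QTNF7 and FAM184B on 7 each, so none of these was tested.

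TAPT1-AS1, a non-coding gene annotated as antisense to TAPT1, had a probe with values on all arrays that fell short of the filter. Its levels ran from 2.54 in siCtrl on day 6 to 5.86 in MOCK on day 2. Its differences between siMLL/AF4 and siCtrl were 1.66, -1.66 and 1.21 on day 2, 4 and 6, with no common direction, and it was not tested.

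**Figure D3:**
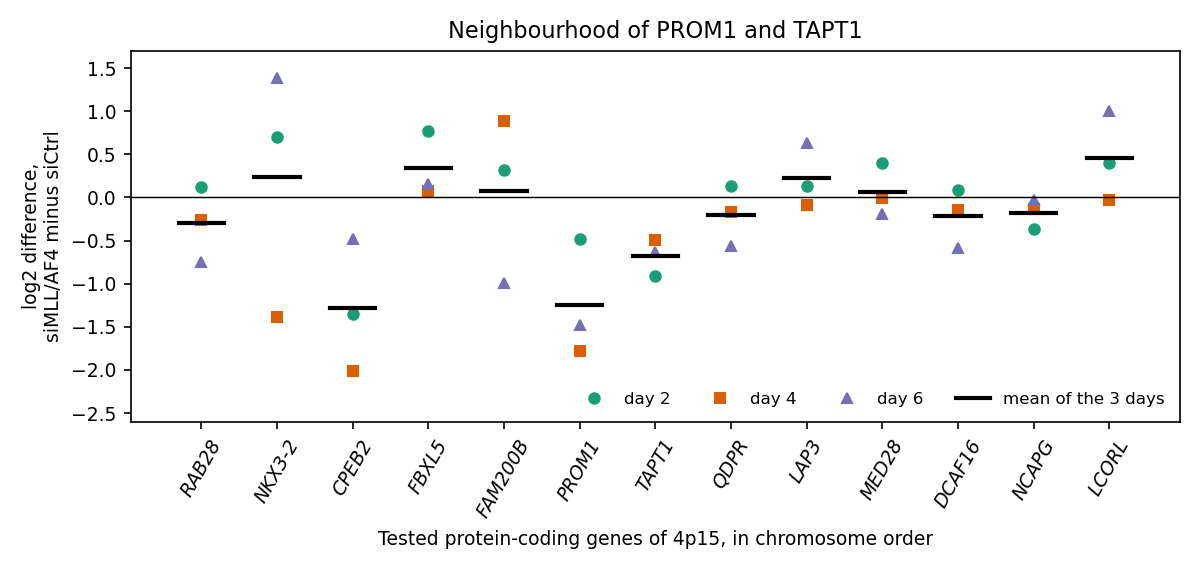
Log2 difference of siMLL/AF4 minus siCtrl for the 13 tested protein-coding genes of 4p15 in chromosome order (evenly spaced, not to distance), with 1 point per day and a bar for the mean of the 3 days. CPEB2, PROM1 and TAPT1 have the lowest means, at -1.28, -1.25 and -0.68, and the other 10 lie between -0.30 and 0.45.

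Among 30 genes known as bound by the fusion, 25 were tested, 2 (ARID1B and TCF4) fell short of the filter or lacked values, and 3 were not analysed here. 16 were lower and 9 higher with siMLL/AF4, and 12 were lower on all 3 days, PROM1 and TAPT1 included, against 15% of all probes. The median of the averaged difference was -0.37, or -0.29 without the 2 genes, against -0.019 for all probes. By size of difference CPEB2 and PROM1 were the lowest, followed by JMJD1C, a member of a histone demethylase family, at -0.98, ARID2, a subunit of a chromatin remodelling complex, at -0.94, and MEF2C, a transcription factor, at -0.77. REEP3, a protein of endoplasmic reticulum shape, went the other way at 1.98. The probes of JMJD1C disagree in sign. Another tested probe had -0.78, and 1 that was not tested, with values on 7 arrays, was higher by 4.62 on day 4 and 1.34 on day 6. 7 of the 25 had an unadjusted p under 0.05, against 7.91% of all probes, and 0 passed after adjustment over all probes (limma, adjusted p = 0.288 for REEP3, 0.486 for JMJD1C, 0.453 for ARID2 and 0.533 for MEF2C).

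Against MOCK on day 4, PROM1 had the lowest value of the 6 target genes named by size. JMJD1C differed from MOCK by 0.17 and -0.14 with siMLL/AF4, ARID2 by 0.23 and -0.30, and MEF2C by 0.10 and 0.59. REEP3 lay above MOCK by 3.52 and 4.03. The list medians for siMLL/AF4 minus MOCK were 0.17 on day 2 and 0.26 on day 4, against 0.086 and -0.0024 for all probes. For siCtrl minus MOCK the list medians were 0.56 and 0.56, against -0.094 and -0.017, and 22 of 25 members were higher in siCtrl on both days, where 34.3% of all probes were. When MOCK replaced siCtrl for those days, the list median of the knock-down turned from -0.37 to 0.0064.

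**Figure D4:**
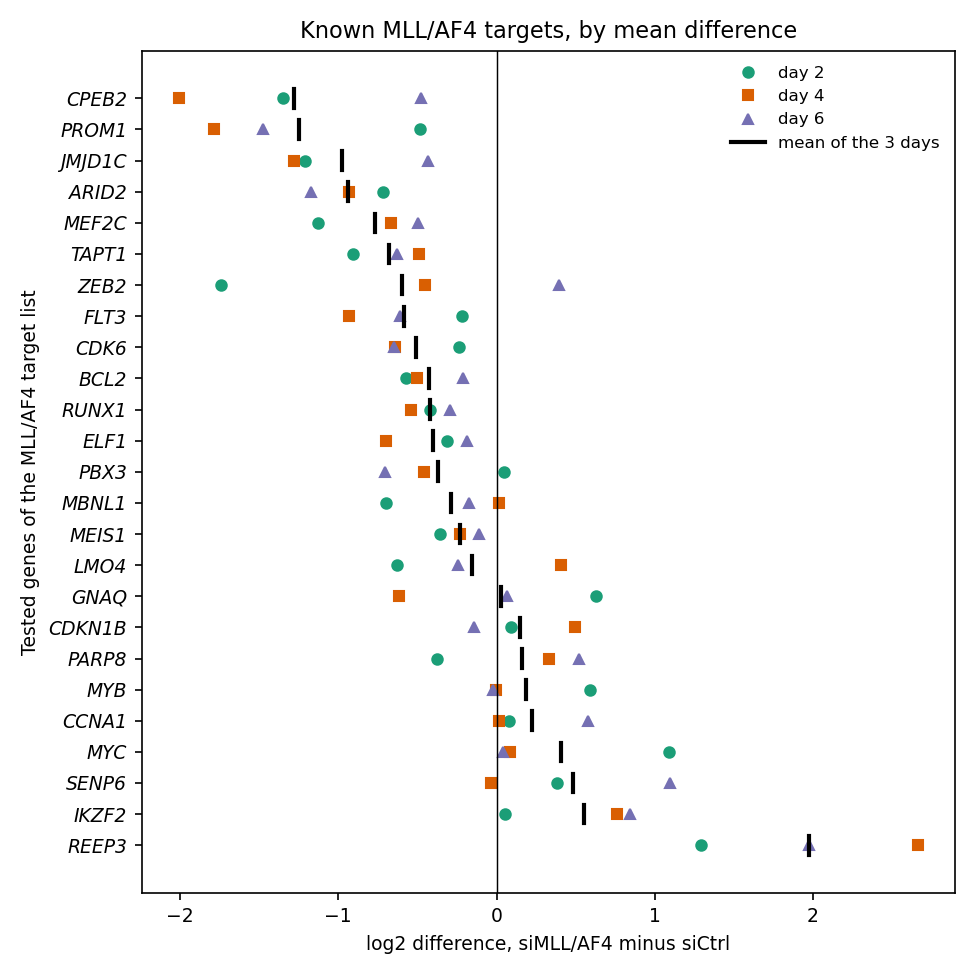
Log2 difference of siMLL/AF4 minus siCtrl for the 25 tested genes of the target list, sorted by the mean of the 3 days (black bars), with 1 point per day. PROM1 and TAPT1 hold the 2nd and 6th lowest means, -1.25 and -0.68, and REEP3 the highest, 1.98.

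Relatives and known partners of the 2 proteins were measured in part. Of 12 such genes 6 were tested, 3 lower and 3 higher, with a median of 0.015, and 0 of them passed at an adjusted or an unadjusted p under 0.05 (limma). HDAC6, a deacetylase that binds CD133, had 0.14, CTNNB1 (beta-catenin) 0.055, PIK3R1, a regulatory subunit of PI3-kinase, -0.20, and AKT1, the kinase downstream of it, -0.27. ATP1B1, a sodium pump subunit, had 0.30 and MGAT1, an enzyme of N-glycan synthesis, -0.025. PROM2, the paralogue of PROM1, had values on 3 arrays only, CDHR1 and TTYH1 on 4, LGALS3 on up to 4 and SUCO, whose yeast relative works with that of TAPT1, on up to 6.

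Other surface proteins of progenitor cells did not all go with PROM1. Of 14 genes 9 were tested, of which 7 were lower and 2 higher with siMLL/AF4, where 52.4% of all probes were lower. On all 3 days 5 of them were lower, against 15% of all probes. CSPG4 (NG2), a proteoglycan typical of leukaemias with MLL fusions, had -2.05, with -1.32, -1.04 and -3.80 on day 2, 4 and 6. Its lowest level on any array was 3.46, at the 24.8th percentile. Against MOCK, CSPG4 with siMLL/AF4 differed by -0.24 on day 2 and -1.10 on day 4. ENG (endoglin) had -0.71, the receptor kinase FLT3 -0.59 and SPN (CD43) -0.49, with -0.97 at its second tested probe. IL7R, the interleukin-7 receptor, had 0.82 and the chemokine receptor CXCR4 0.74, both higher on all 3 days. 3 of the 9 had an unadjusted p under 0.05, against 7.91% of all probes, and 0 passed after adjustment over all probes (limma, adjusted p = 0.459 for CSPG4, 0.492 for IL7R and 0.512 for CXCR4). CD34 and CD38 did not reach the filter or lacked values.

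Finally, the genes whose values followed the 2 probes most closely were listed, by Pearson correlation over the 8 arrays after subtracting each probe's mean within its array version. For PROM1 the nearest were STARD13 (r = 0.976), BMP2K, a kinase (0.974), PRSS12, a serine protease (0.974), ANGPT1, a ligand of the TIE2 receptor (0.973), and NOC2L, a nucleolar and chromatin protein (0.966). As PROM1 did, and as picking by likeness to it favours, each had its lowest centred value with siMLL/AF4 on day 4. That array stood at -1.30 for PROM1, -1.83 for STARD13 and -1.66 for ANGPT1. The most opposed were SMG1 (r = -0.977), a kinase of nonsense-mediated decay, SQSTM1 (-0.976), an autophagy receptor, and GADD45A (-0.975), a stress-induced gene.

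For TAPT1 the nearest were MBNL3, a splicing regulator (r = 0.973), SPRY2, an inhibitor of ERK signalling (0.969), KIF23, a kinesin of cytokinesis (0.963), the homeobox gene MEIS1 (0.962) and ARID2 (0.960). As TAPT1 did, and as picking by likeness to it favours, these lay above their centre on all 3 siCtrl arrays and below it on both MOCK arrays. APOBEC3G, a cytidine deaminase (r = -0.990), CCDC74A (-0.975) and FBXO7, an F-box protein (-0.967), were the most opposed. TAPT1 itself correlated with PROM1 at r = 0.54, and 13.3% of the 10729 other probes were as close or closer to PROM1. Centring makes the 2 day 6 values of a probe mirror images of each other, so the 8 arrays hold fewer independent values. These are correlations over 8 arrays of 1 cell line that were normalized together, picked from all probes, and they describe likeness on these arrays only.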

How the data were processed

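Biotin-labelled total RNA of 8 SEM samples was hybridised to Illumina bead arrays of 2 versions, per the labels, and GenomeStudio is named in the submitters' processing notes. Background correction and normalization are not given in the sources used here. On the log2 scale all 8 arrays share a maximum of 15.24 and a minimum of -3.21, with medians from 5.156 to 5.159. The values of both versions had thus been brought to nearly the same distribution. Each deposited value is read as a natural log intensity, inferred from the numbers (the largest would be 38664 on the linear scale as a natural log and 1512 as a log to base 2). They were divided by the natural log of 2 to give log2 values. Between 28.5% and 28.8% of the 39421 entries per array are Null and were treated as missing. The platform annotation gave 27210 probes 1 gene symbol, 8 several and 12203 none, and 27177 matched RefSeq gene names by Entrez identifier. All columns mapped to a sample (0 unmapped).

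A probe was tested when it had 1 symbol, values on all arrays fitted and an average no lower than the 50th percentile in each array version. limma 3.58.1 in R 4.3.3 (lmFit, eBayes, two-sided, Benjamini-Hochberg, threshold 0.05) used day as a block, with 2 residual degrees of freedom for the knock-down. The models were tested on simulated data. The replicate number in the titles is the time point, so same-numbered arrays pair by day. The correlation across probes of their deviations from the treatment means was 0.547, 0.353 and 0.676 on day 2, 4 and 6. siCtrl of day 4 correlated as much with siMLL/AF4 of day 2 (0.353), so the pairing of day 4 rests on the labels. The arrays of day 6 are the only ones of the newer version. Their correlation cannot tell pairing by day from array version. For lists, the brightest tested probe stood for a gene.

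The members, lists and tests were chosen with earlier results of these data known. Named were all neighbours and partners, up to 6 target and 6 surface genes by size of difference, and the 5 most and 3 least alike genes per member. Alternatives covered the log base, normalization, offsets, floor, filters, probe summaries, variance model, leaving out each day, the block and the control. Figures were drawn with matplotlib 3.10.9. Sequences are from RefSeq, GRCh38.p14.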

Additional observations from a re-analysis of the deposited data

Results flagged for a closer look

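The PROM1 difference between siMLL/AF4 and MOCK had unlike signs on the 2 days with a MOCK array, at 0.12 on day 2 and -1.30 on day 4. The day 2 value lay close to the median of all probes tested (0.086), with 51.7% of them at or below it. At or below the day 4 value lay 3.08%. With 1 array per treatment and day the difference between the days was not tested.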

How the results depend on the processing

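The knock-down difference of PROM1 was negative under all 18 alternatives, between -1.63 and -0.87, and that of TAPT1 between -0.77 and -0.053, the last with MOCK as the control. Many of these could not change the sign. The floor, filters, probe summaries, variance model, block and MOCK arrays in the fit left both estimates unchanged. The log base only rescaled them. Quantile normalization within array version and the shift to a common median gave -1.25 for PROM1 and -0.68 for TAPT1. They could hardly move the estimates, because the arrays already shared nearly the same distribution. In the contrasts with MOCK below, the filter and variance model left the estimates unchanged too. Leaving out each day gave -1.63 to -0.98 for PROM1 and -0.77 to -0.56 for TAPT1. The side of the threshold changed once: with a trended robust variance PROM1 passed at -1.25 (limma, adjusted p = 0.0443), while an offset of 64 gave an adjusted p (limma) of 0.0518 and a filter at the 70th percentile 0.127. No replicate block left the differences at -1.25 and -0.68, with adjusted p = 1.00 for both (limma). The number of probes called went from 0 to 46 with the offset of 64, 33 with the stricter filter, 58 with the trended robust variance and 6 with the MOCK arrays in the fit, and was 0 without each day in turn. The cause was not tested. The siCtrl minus MOCK differences stayed positive (0.094 to 0.85 for PROM1, 0.86 to 1.25 for TAPT1), as did siMLL/AF4 minus MOCK for TAPT1 (0.21 to 0.57), and for PROM1 the fitted value of the latter stayed negative (-1.22 to -0.13), although the measured difference on day 2 alone was 0.12. Leaving out a day with MOCK gave 0.40 to 0.85 and 0.86 to 0.98 for siCtrl, and -1.22 to -0.13 and 0.21 to 0.30 for siMLL/AF4, in the same order. The values 0.094, 1.25 and 0.57 came from the fits without the block. There the siRNA means include day 6 on the newer array version and the MOCK means do not. Without day 6 the slope of the PROM1 effect was -0.65 per day. The median of the target list reversed to 0.0064 when MOCK replaced siCtrl. That of the 4p15 list was -0.18 without a filter too. It could not change, because the untested neighbours lack values and none could enter. Signal limits the 10 neighbours that were not tested, which have Null entries.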
